A study of Mus musculus with 14 samples.

Results

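The 9 genes described here carry out the writing, erasing and reading of DNA methylation: Dnmt1, Dnmt3a and Dnmt3b (writers), Tet1, Tet2 and Tet3 (erasers) and Mbd1, Mbd2 and Mbd3 (members of the methyl-CpG binding domain family). They were found by symbol in the deposited tables, where 11 of 81411 loci hold one of them, and all 9 had a value in at least 1 library, among 18680 genes that did. Hippocampus RNA was sequenced from 14 C57BL6 mice aged 30 days, with a library number of its own for each, taken as 1 library per mouse. There were 3 wild-type (KMT2D+/+) vehicle libraries, 3 KMT2D+/bGeo vehicle libraries, 5 wild-type TAK-418 libraries and 3 KMT2D+/bGeo TAK-418 libraries. KMT2D+/bGeo mice, called mutants below, are heterozygous for a gene trap allele of the histone methyltransferase gene Kmt2d, and serve as a model of Kabuki syndrome. TAK-418 inhibits the histone demethylase LSD1, the product of Kdm1a, and was given by gavage at 1 mg/kg/day for 2 weeks from 2 weeks of age. The vehicle groups received methylcellulose. The study's own text gives 3-4 mice per group, whereas 5 libraries are labelled wild-type TAK-418.

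DNA methylation in mammals sits mostly on the cytosine of CG dinucleotides. DNMT1 copies the mark onto the new strand after replication, and DNMT3A and DNMT3B set it on unmethylated DNA. TET enzymes oxidise methylcytosine, which opens the way to its replacement by cytosine. MBD1 and MBD2 bind methylated CG sites, while MBD3, whose domain binds methylated DNA poorly, is a subunit of the NuRD chromatin remodelling and deacetylase complex, as is MBD2 in its own NuRD form. Neurons carry high levels of methylation set by DNMT3A after birth and of hydroxymethylcytosine. KMT2D and LSD1 act on methylation of histone H3 lysine 4. The ADD domain of the DNMT3 proteins binds histone H3 when that lysine is unmethylated.

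Wild-type TAK-418 replicate 1 was the deepest library, at a relative depth of 168 M; the other 13 lay from 35.1 M to 60.0 M, as read from the step that a single fragment adds to a value. Replicate numbers only tell libraries of a group apart. All 6 markers of hippocampal excitatory neurons were listed in every library. The summed level of 6 choroid plexus genes was 6469 in wild-type vehicle replicate 3, 5033 in mutant vehicle replicate 1, 909 in mutant vehicle replicate 3 and 607 in mutant TAK-418 replicate 1, against 15.9 to 44.0 in the other libraries. Kmt2d, the trapped gene, ran from 9.34 to 14.6 in the 6 mutant libraries and from 12.5 to 18.0 in the 8 wild-type libraries, so the genotypes overlapped. The genotype effect averaged over treatments was -0.26 on the log2 scale (SE 0.11, adjusted p = 0.848 in limma). A trapped allele can still give RNA from the exons before the trap, and the part of such RNA in these values was not tested. Kdm1a lay between 29.9 and 35.8 in all 14 libraries.

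The value used for each gene is its scaled abundance: the sum of the abundances of its assembled transcripts, which the files give per library on a scale like FPKM (fragments per kilobase, corrected for depth), divided by a factor per library. The scale is per length, but a gene assembled in several pieces counts each of them, so the levels of Dnmt3b and Tet1 are raised by fragments and set no order. Tet2 was also counted in pieces in some libraries. Mbd3 was highest at 59.2 ± 9.14 (mean ± SD over 14 libraries), followed by Mbd2 at 30.6 ± 8.23. Mbd1 at 15.1 ± 1.32, Dnmt1 at 14.4 ± 0.714 and Dnmt3a at 13.96 ± 3.09 were neighbours that did not differ beyond their spread. Tet3 at 10.1 ± 0.628 and Tet2 at 7.66 ± 1.39 followed. Dnmt3b (0.530 to 1.98) and Tet1 (0 to 3.01) were lowest. In the authors' deposited tables the tested loci, at 0.417 to 0.490 and 1.49 to 1.74, put Tet1 above Dnmt3b. Mbd3 and Mbd2, both of the reader family, were thus the most abundant, and within the writers and the erasers the lowest member, Dnmt3b or Tet1, lay well under its relatives.

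Dnmt1 and Tet3 varied least between mice. The coefficient of variation over the 14 libraries was 4.95% for Dnmt1 and 6.24% for Tet3, which puts them at the 12.7th and 23.5th percentile of variation among the 13273 genes listed in all 14 libraries. Mbd1 followed at 8.72%. Dnmt3a (22.1%), Mbd2 (26.9%) and Dnmt3b (33.0%) varied more than most genes.

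**Figure D1:**
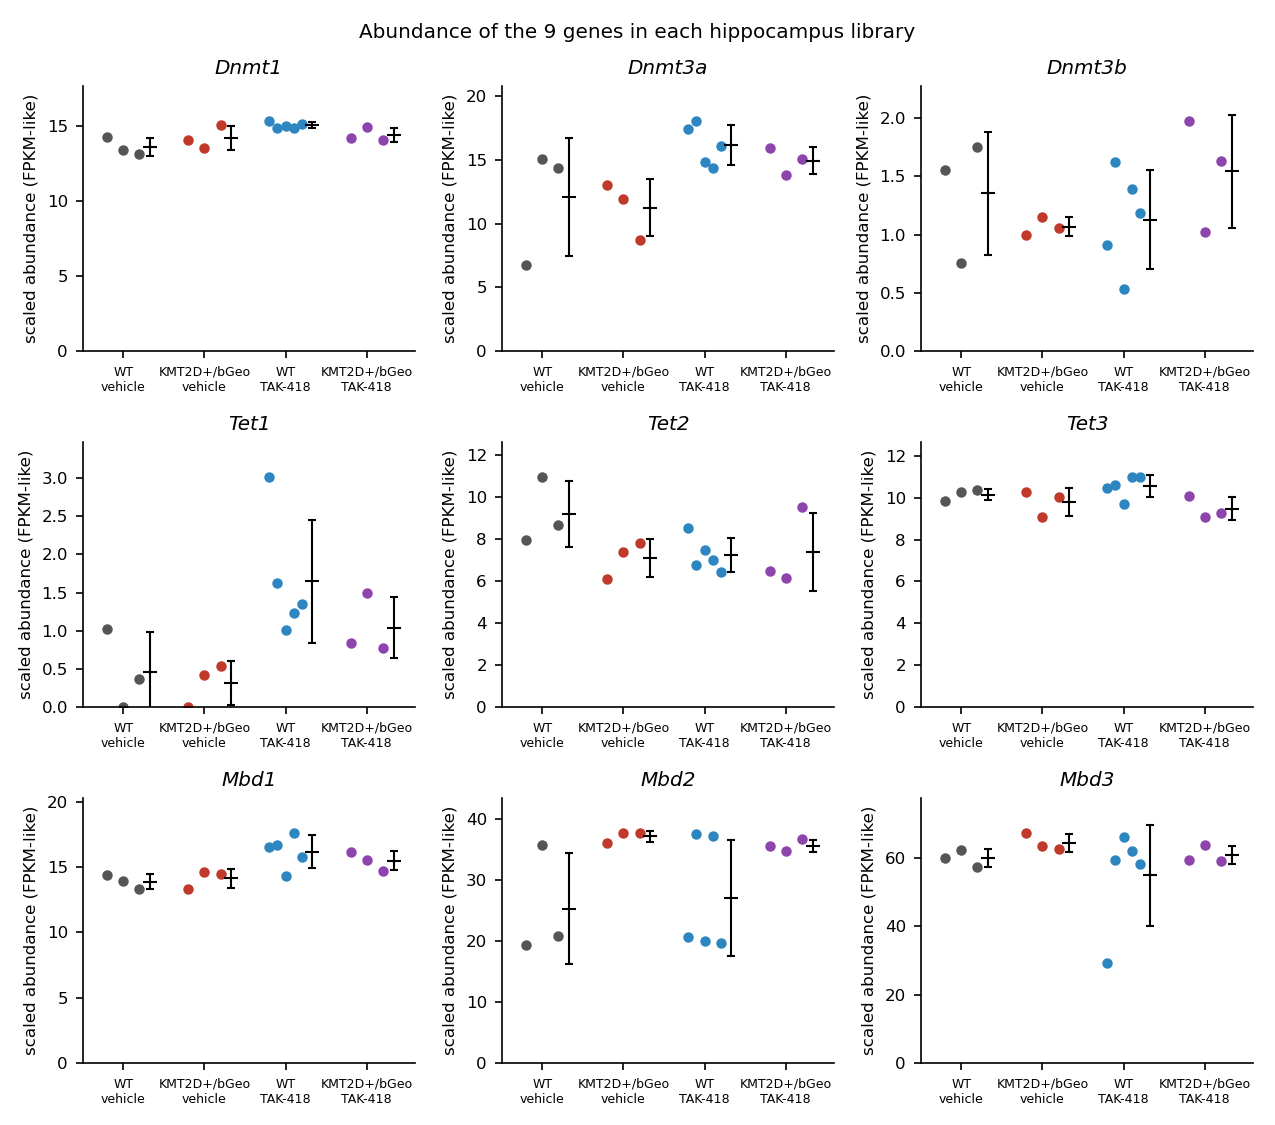
Scaled abundance (FPKM-like, linear axis from 0) of each gene in each of the 14 libraries, by group; points are libraries in replicate order, and the black mark beside each group is its mean with SD. Dnmt1 and Tet3 are nearly level across groups, Mbd2 falls into separate upper and lower values, and 1 wild-type TAK-418 library stands low for Mbd3.

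CG dinucleotides, the sites these proteins write, erase and read, are dense at several of the members' own promoters. RefSeq promoter windows (GRCm38.p6, 300 bases, most of it before an annotated start) were matched for 7 of the 9 symbols, with 11 windows. CG dinucleotides, searched as the letters CG (the same on both strands), are in capitals. The windows shown are 3 in which assembled transcripts of Dnmt1, Dnmt3a and Tet3 began and the internal Dnmt3a window, 1 of those where none did. A second upstream Dnmt3a window, chr12:3806910-3807209, overlaps the one shown, holds 47 CGs and also had starts in 11 libraries.
Dnmt1, chr9:20952574-20952873, minus strand: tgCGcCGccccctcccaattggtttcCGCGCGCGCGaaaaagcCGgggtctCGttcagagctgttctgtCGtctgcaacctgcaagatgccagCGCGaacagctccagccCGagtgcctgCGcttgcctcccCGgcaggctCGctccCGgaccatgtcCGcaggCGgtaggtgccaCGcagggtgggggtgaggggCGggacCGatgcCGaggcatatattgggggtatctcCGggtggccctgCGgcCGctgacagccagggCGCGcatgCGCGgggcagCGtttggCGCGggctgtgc
Dnmt3a upstream, chr12:3806730-3807029, plus strand: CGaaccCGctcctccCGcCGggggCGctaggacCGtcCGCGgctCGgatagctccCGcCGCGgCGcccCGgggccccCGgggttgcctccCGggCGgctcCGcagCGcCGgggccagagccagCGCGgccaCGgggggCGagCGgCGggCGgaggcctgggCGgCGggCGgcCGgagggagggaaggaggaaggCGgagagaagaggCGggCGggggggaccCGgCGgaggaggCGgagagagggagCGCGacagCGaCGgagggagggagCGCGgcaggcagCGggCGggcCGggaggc
Dnmt3a internal, chr12:3891494-3891793, plus strand: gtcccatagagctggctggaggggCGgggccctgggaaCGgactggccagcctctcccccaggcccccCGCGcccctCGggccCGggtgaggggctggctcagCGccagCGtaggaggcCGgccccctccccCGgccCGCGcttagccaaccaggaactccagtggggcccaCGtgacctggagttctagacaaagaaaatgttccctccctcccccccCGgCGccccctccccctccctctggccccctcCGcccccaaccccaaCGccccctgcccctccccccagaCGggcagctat
Tet3, chr6:83441629-83441928, minus strand: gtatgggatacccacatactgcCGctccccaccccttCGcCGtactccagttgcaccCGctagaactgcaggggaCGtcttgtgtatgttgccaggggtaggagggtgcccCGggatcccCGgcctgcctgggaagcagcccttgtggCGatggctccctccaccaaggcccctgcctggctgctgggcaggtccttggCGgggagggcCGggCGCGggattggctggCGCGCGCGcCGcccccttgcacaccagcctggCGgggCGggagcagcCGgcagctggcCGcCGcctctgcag
The windows hold 33, 46, 18 and 22 CGs in that order. Over all 32851 windows of 300 bases the median was 7, 94.6% held at least 1 CG, and as many CGs were held by 8.56%, 1.65%, 29.7% and 23.1% of windows in the same order. Of the 11 member windows, 10 held at least the median number. Transcripts began inside these windows in 14 libraries for Dnmt1, 11 for the upstream Dnmt3a window shown, 0 for the internal one and 10 for Tet3. None began in the matched windows of Tet2, with 57 CGs, Dnmt3b (30), Mbd3 (22) or Tet1 (17). As many CGs as in the Tet2 window were held by 0.152% of all windows.

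Dnmt1 (chr9:20907209-20959888, minus strand, GENCODE M21) is the maintenance methyltransferase. Its scaled abundance was 14.3, 13.4 and 13.1 in wild-type vehicle, 14.1, 13.5 and 15.1 in mutant vehicle, and 14.2, 14.9 and 14.1 in mutant TAK-418 libraries. In wild-type TAK-418 it was 15.4, 14.9, 15.0, 14.9 and 15.2. The wild-type TAK-418 libraries all lay above the wild-type vehicle libraries, and both mutant groups overlapped the vehicle wild types. Every Dnmt1 transcript had 39 exons and began inside the Dnmt1 window shown above, in 14 of 14 libraries. The starts lay at 20952808 to 20952836, so most of that window lies after them. None began in the window just upstream, chr9:20952930-20953229, with 12 CGs, or in the far upstream one, chr9:20959839-20960138, with 2 CGs. The transcripts differed at 1 acceptor, where the exon begins either with or without 3 bases. The longer form was assembled in 12 libraries and the shorter in 3, of which 1 library had both. The 3 bases at chr9:20940552-20940554 are in capitals here, between 14 bases on each side in an annotated spliced transcript, because they add exactly 1 codon.
Dnmt1 acceptor: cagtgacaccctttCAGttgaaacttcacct

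Dnmt3a (chr12:3806007-3914443, plus strand) encodes a de novo methyltransferase with a long form from the upstream promoter and a short form from an internal one. It was the least steady of the well-expressed writers. The values were 6.77, 15.1 and 14.4 in wild-type vehicle and 13.04, 11.95 and 8.73 in mutant vehicle libraries. Under TAK-418 they were 17.4, 18.1, 14.8, 14.4 and 16.05 in wild types and 15.9, 13.8 and 15.1 in mutants. The vehicle groups each held 1 library well under its fellows, and mutant TAK-418 libraries lay above all mutant vehicle libraries, while the wild-type groups overlapped. All 21 assembled Dnmt3a transcripts had 23 exons. Of their abundance, 99.5% began at the upstream promoter, and 0 transcripts began at the internal start. This says that no transcript was assembled from the internal start, not that the short form was absent. In the authors' deposited table values per group, Dnmt3a ran only from 11.1 to 12.3, a 1.11-fold range.

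Dnmt3b (chr2:153649450-153687730, plus strand), the other de novo enzyme, was present mainly as fragments. The assembled pieces covered a median of 26.7% of its annotated exon bases, from 9.24% to 74.2%, and the sum over fragments ran from 0.530 to 1.98. Its groups overlapped throughout. The authors' deposited table gives the locus, which also holds RP23-244H7.1, at 0.417 to 0.490.

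Tet1 (chr10:62804570-62908996, minus strand) was the least assembled member. It was listed at 0 in wild-type vehicle replicate 2 and mutant vehicle replicate 1, which says that no transcript was assembled there, not that the gene was silent. The other vehicle values were 1.02 and 0.366 in wild types and 0.416 and 0.537 in mutants. Under TAK-418 the values were 3.01, 1.62, 1.01, 1.23 and 1.35 in wild types and 0.837, 1.497 and 0.777 in mutants. The 3.01 came from replicate 1, the deepest library. Without it the log2 difference for the drug effect in wild types was 0.77, against 0.93 with it. Treated libraries of each genotype lay above the vehicle libraries of that genotype, except that 1 wild-type vehicle library, at 1.02, was level with the lowest treated one. How much of the gene was assembled differed widely: over 40% of annotated exon bases were covered in 5 libraries (49.2% to 61.9%), 4 of them wild-type TAK-418 and 1 mutant vehicle, and at most 9.28% in the other 9, which include all 3 mutant TAK-418 libraries and wild-type TAK-418 replicate 3. The authors' deposited table gives the tested Tet1 locus at 1.49 to 1.74 in all groups, a 1.17-fold range. For vehicle mice, the authors' deposited table lists that locus at 1.49 in wild types and 1.66 in mutants, and for treated mice the authors' deposited table lists 1.56 and 1.73. A second Tet1 locus at the same coordinates, not tested there, was at 0.0478 to 0.0674 in the vehicle groups in the authors' deposited tables. That second locus was at 0.179 to 0.186 in the TAK-418 groups in the authors' deposited tables. The part of assembly completeness in the library values was not tested.

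Tet2 (chr3:133463679-133545139, minus strand), the eraser without a DNA-binding CXXC domain of its own, had 7.96, 10.97 and 8.64 in wild-type vehicle and 6.10, 7.40 and 7.80 in mutant vehicle libraries, and the vehicle groups did not overlap on this scale. With scaled abundance multiplied by length in kilobases they did, at 49.8, 55.8 and 58.4 in wild types and 53.5, 49.1 and 53.9 in mutants. Wild-type TAK-418 libraries ran from 6.45 through a median of 6.99 to 8.52, and mutant TAK-418 libraries were at 6.49, 6.15 and 9.53. A single transcript from the first to the last exon was assembled in 7 of 14 libraries. The gene was only in separate pieces in the others, which include all wild-type vehicle libraries, and each piece is counted in the value. Libraries with only pieces gave 7.40 to 10.97. Those with the single transcript gave 6.10 to 6.99, except wild-type TAK-418 replicate 1 at 8.52, which also held partial transcripts. The part of this in the group values was not tested. The authors' deposited table placed the groups within a 1.08-fold range, from 7.39 to 7.97.

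Tet3 (chr6:83362373-83459084, minus strand) was the most abundant eraser and nearly level. It ran from 9.05 to 11 over all libraries. The values were 9.83, 10.2 and 10.3 in wild-type vehicle, 10.3, 9.05 and 10.1 in mutant vehicle, and 10.1, 9.07 and 9.28 in mutant TAK-418 libraries. Wild-type TAK-418 libraries lay between 9.72 and 11. Tet3 was also the one member listed in all 14 libraries that met the rule for alternative starts, at least 5% of the abundance in each of 2 classes of annotated start. The internal start (83441632 to 83441678) gave 75.9% of its abundance and the upstream class (83456392) 24.1%, where a transcript belonged to a class if it began within 2000 bases of it. Of the 15 transcripts in the upstream class, 7 began at 83456322 to 83456750 and 8 at 83454882 to 83455306, inside the annotated start. The longest reading frame is 1803 codons in the annotated transcript from the upstream start and 1668 codons in that from the internal start.

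The upstream share of Tet3 differed widely inside groups. It was 16.7%, 27.5% and 20.1% in wild-type vehicle and 14.5%, 0% and 68.2% in mutant vehicle libraries. It was 5.04%, 73.2%, 0%, 15.5% and 10.04% in wild-type TAK-418 and 5.76%, 86.0% and 0% in mutant TAK-418 libraries. A single library in each of 3 groups thus had most of its Tet3 in the upstream class. In mutant vehicle replicate 3 and mutant TAK-418 replicate 2 these transcripts began at 83455045 and 83455112, not at the annotated start itself. The upstream share included a 2-exon piece of 507 to 599 bases in wild-type vehicle replicate 1, mutant vehicle replicate 1 and wild-type TAK-418 replicates 4 and 5. Such a piece was the only upstream transcript in wild-type TAK-418 replicate 5. In mutant vehicle replicate 1 its abundance was 0.870, against 0.396 for the long upstream transcript. No group comparison passed the exact two-sided permutation test: the smallest p of 5 contrasts was 0.75 and all values adjusted over them (Benjamini-Hochberg) were 1. The smallest p the test can give is 0.1 for 3 against 3 libraries and 0.0357 for 3 against 5. No adjusted p over the 5 contrasts could therefore fall under 0.05.

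Mbd1 (chr18:74267605-74282732, plus strand), a reader that binds methylated CG sites and represses transcription, gave 14.4, 13.9 and 13.3 in wild-type vehicle and 13.3, 14.6 and 14.5 in mutant vehicle libraries. Under TAK-418 it gave 16.5, 16.7, 14.3, 17.6 and 15.8 in wild types and 16.2, 15.5 and 14.7 in mutants. Mutant TAK-418 libraries lay above all mutant vehicle libraries, and 4 of the 5 wild-type TAK-418 libraries lay above all wild-type vehicle ones. Mbd1 was the member with the most transcripts, 4 to 13 per library and 83 in all, all of them from 1 class of start.

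Assembled Mbd1 transcripts differed at 3 main splice choices, of which 2 were seen with both forms in every library. A cassette exon of 168 bases (chr18:74275904-74276071) lengthens the longest annotated frame from 588 to 644 codons and encodes the third CXXC zinc finger, which binds unmethylated CG. It was joined in 45.2% of the abundance. The share was 47.8%, 50.9% and 48.3% in wild-type vehicle and 43.4%, 37.5% and 45.8% in mutant vehicle libraries, which did not overlap. It was 39.3%, 42.0%, 30.6%, 42.2% and 53.6% in wild-type TAK-418 and 50.4%, 58.9% and 43.7% in mutant TAK-418 libraries. The vehicle genotypes differed by -6.77 percentage points with p = 0.1, the smallest this exact permutation test allows, and an adjusted p of 0.571 over 20 tests.

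A second Mbd1 exon of 115 bases (chr18:74273209-74273323) was skipped in 4.07% to 19.5% of the abundance. The third choice was between a near and a far last exon, beginning at 74278679 or 74281879. The near exon was assembled in 13 libraries. The far one took 4.31% to 100%, and wild-type vehicle libraries alone spanned that whole range. None of the Mbd1 choices passed the test in any contrast, but no adjusted p over the 20 splice tests could have fallen under 0.05.

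Mbd3 (chr10:80392539-80399550, minus strand), the NuRD subunit, was the most abundant member. The values were 60.0, 62.3 and 57.2 in wild-type vehicle, 67.3, 63.4 and 62.5 in mutant vehicle, and 59.3, 63.7 and 59.0 in mutant TAK-418 libraries. Wild-type TAK-418 libraries gave 29.1, 59.3, 66.0, 62.0 and 58.2. The low value, replicate 1, is the deepest library, and in it all 4 Mbd3 transcripts began at 80406796 inside the neighbouring gene Uqcr11 and were 5254 to 5571 bases long, against at most 1377 bases elsewhere. Scaled abundance times length in kilobases was 157 in that library and 71.0 to 83.5 in the others, so its order turned round when length was put back. The authors' deposited table also joins Mbd3 and Uqcr11 in 1 locus, at 264 to 284, and therefore gives no value for Mbd3 alone.

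Mbd3 transcripts ended their first exon at either of 2 donors 96 bases apart. The longer form adds 32 codons (285 against 253 in the longest annotated frame) within the methyl-CpG binding domain region of the protein. The 96 bases, chr10:80399122-80399217 on the minus strand, are in capitals, with 12 bases on each side in the spliced transcript from GENCODE, because their presence is what separates the 2 forms.
Mbd3 longer exon 1: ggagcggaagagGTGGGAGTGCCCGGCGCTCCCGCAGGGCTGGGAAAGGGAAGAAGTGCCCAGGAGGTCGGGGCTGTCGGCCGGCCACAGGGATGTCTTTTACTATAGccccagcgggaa
The longer form made 25.9%, 32.6% and 31.5% of the abundance in wild-type vehicle, 33.0%, 29.7% and 27.9% in mutant vehicle, and 27.6%, 23.2% and 28.0% in mutant TAK-418 libraries. It made 68.8%, 26.7%, 36.3%, 37.4% and 30.3% in wild-type TAK-418 libraries. The 68.8% came from the library with the read-through transcripts. The smallest exact permutation p was 0.107, for mutant TAK-418 against wild-type TAK-418 libraries (26.3% ± 2.65, n = 3, against 39.9% ± 16.7, SD, n = 5), and it was 0.171 without that library. Across the 4 splice choices and 5 contrasts, 0 of 20 tests were under 0.05. In contrasts of 3 against 3 libraries the smallest possible p is 0.1, so only those of 3 against 5 (0.0357) could be under 0.05.

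**Figure D2:**
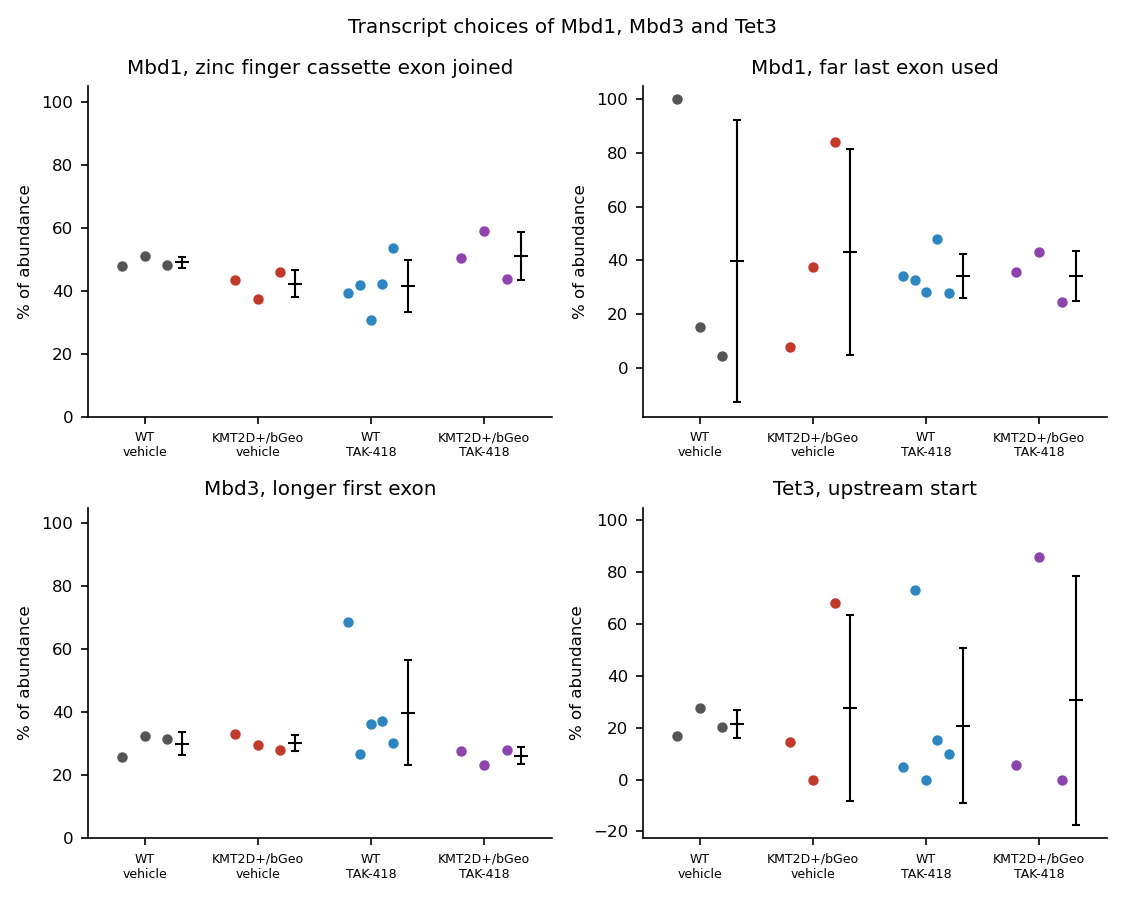
Percent of a gene's abundance (linear axes) in 1 of 2 alternative forms for Mbd1, Mbd3 and Tet3, for each of the 14 libraries by group; the black mark is the group mean with SD, which can reach below 0. The Mbd3 share is near 30% in all but 1 library, while the Tet3 start and the far Mbd1 exon swing between libraries of 1 group.

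Mbd2 (chr18:70568189-70626131, plus strand), a methyl-CpG reader that recruits NuRD, had values in separate sets with nothing between. It was 19.4, 35.7 and 20.7 in wild-type vehicle, 36.1, 37.6 and 37.7 in mutant vehicle, and 35.5, 34.6 and 36.6 in mutant TAK-418 libraries. Wild-type TAK-418 libraries gave 20.6, 37.5, 19.9, 37.2 and 19.7. The low values, 5 of 8 wild-type libraries and 0 of 6 mutant libraries, went with the transcript model. Each library has 1 Mbd2 transcript. In those 5 libraries it ended with a last exon of 3202 to 3281 bases, past the annotated gene end, and was 4103 to 4276 bases long. In the other 9 the last exon had 303 to 405 bases and the transcript 1209 to 1361.

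Because abundance is per length, the order of Mbd2 turned round on the other scale. Scaled abundance times length in kilobases was 82.6 to 85.1 in the 5 libraries with the long last exon and 41.9 to 48.6 in the other 9. Among libraries with the short last exon, the 3 wild-type values (35.7, 37.5 and 37.2) lay within the range of the 6 mutant values (34.6 to 37.7). The authors' deposited table, made on a common set of loci, gives Mbd2 at 25.7 to 27.6 in every group. The link between genotype and the long last exon was noticed after the values were seen and was not tested.

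**Figure D3:**
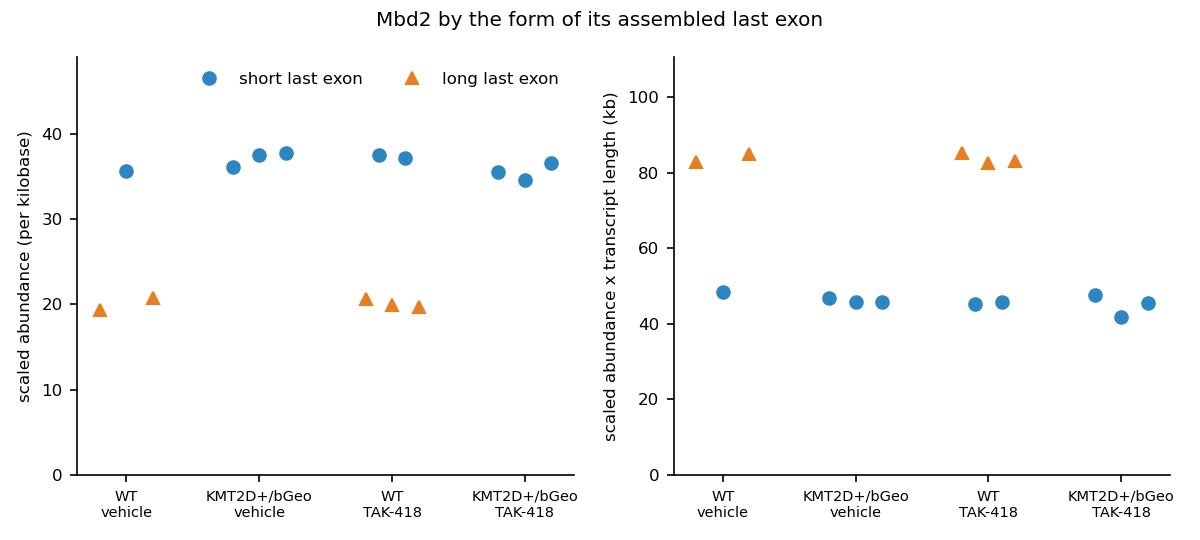
Mbd2 in each of the 14 libraries by group, as scaled abundance per kilobase (left) and multiplied by transcript length (right), on linear axes from 0; triangles mark libraries whose transcript has the long last exon and circles those with the short one. The triangles lie near 20 at left, under all circles, and above 80 at right, over all circles.

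Group differences were tested with limma on the log2 scale over 16538 genes, with p-values adjusted by Benjamini-Hochberg over all of them and called under 0.05. For the genotype effect under vehicle, 0 of 9 members were called, against 0% of all genes, and 0 members had an unadjusted p under 0.05, against 5.45% of all genes. The member with the smallest p was Mbd2, the gene whose low values went with the transcript model, with a log2 difference of 0.59 (SE 0.28, adjusted p = 0.910). It turned to -0.59 with abundance multiplied by length. Tet2 followed with -0.33 (SE 0.16, adjusted p = 0.914), and was at -0.06 with abundance multiplied by length. The members ran from -0.33 to 0.59 with a median of -0.04, beside a median of 0.00 over all genes.

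For the drug effect in mutants, 0 of 9 members were called, against 0.00605% of all genes, and 0 had an unadjusted p under 0.05, against 4.41% of all genes. Tet1 had the smallest p, with a log2 difference of 0.69 (SE 0.32, adjusted p = 1 in limma), and Mbd1 came next with 0.12 (SE 0.07), which turned to -0.45 (SE 0.21) with the highest transcript only. Tet1 ran from 0.11 to 1.84 as the constant added before the log was made 10 times larger or smaller. The members' median was 0.04. In wild types, 0 of 9 members and 0% of all genes were called for the drug effect. Unadjusted p-values under 0.05 were found for 4 of 9 members, Dnmt1, Dnmt3a, Tet1 and Mbd1, each higher with TAK-418, against 8.45% of all genes. None passed after adjustment. Tet1 had a log2 difference of 0.93 (SE 0.29, adjusted p = 0.405 in limma), from 0.17 to 2.19 with the constant 10 times larger or smaller, Mbd1 0.21 (SE 0.06, adjusted p = 0.406) and Dnmt1 0.14. Mbd1 turned to -0.0552 when abundance was multiplied by transcript length and to -0.064 with the highest transcript only. The summed level of 4 newborn granule neuron genes, of which 3 or 4 were listed in a library, was 56.9 to 66.1 in wild-type TAK-418 and 39.6 to 52.9 in wild-type vehicle libraries, and that of 5 genes of dividing cells was 4.83 to 9.76 and 8.79 to 9.94. Their part in these values was not tested. In bulk tissue, fewer cells of a type and less RNA per cell cannot be told apart.

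Under TAK-418, the genotype effect gave 0 of 9 members, against 0.0121% of all genes, and 1 member had an unadjusted p under 0.05, against 4.94% of all genes. Tet3 had the smallest p, with a log2 difference of -0.14 (SE 0.06, adjusted p = 0.925 in limma), followed by Mbd2 with 0.45 (SE 0.25), which turned to -0.53 with abundance multiplied by length. Treated mutants against vehicle wild types gave 0 of 9 members, against 0.0242% of all genes, and 0 with an unadjusted p under 0.05, against 5.39%. The smallest p-values were those of Mbd1 at 0.15 (SE 0.07, adjusted p = 0.937) and Mbd2 at 0.53 (SE 0.28), and with abundance multiplied by length they turned to -0.40 and -0.65. These limma contrasts share libraries with the others and are not independent of them.

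The interaction, which asks whether the drug effect differs between genotypes, gave 0 of 9 members, against 0.00605% of all genes, and 0 with an unadjusted p under 0.05, against 4.44%. Dnmt1 had the smallest p, with a difference of drug effects of -0.12 (SE 0.07, adjusted p = 0.977 in limma), and Tet2 came next with 0.34 (SE 0.21). Dnmt1 turned to 0.0408 with the highest transcript only and Tet2 to -0.0454 with abundance multiplied by length. Averaged over treatments, the genotype effect gave 0 of 9 members, against 0.00605% of all genes. Unadjusted p-values under 0.05 were found for 2 members, against 5.85% of all genes: Mbd2 at 0.52 (SE 0.19, adjusted p = 0.814), which turned to -0.56 with abundance multiplied by length, and Tet3 at -0.10 (SE 0.04, adjusted p = 0.850). Averaged over genotypes, the drug effect gave 0 of 9 members, against 0.0121% of all genes. It had the smallest adjusted p of any member and contrast, 0.353 for Tet1, at a log2 difference of 0.81 (SE 0.21), from 0.14 to 2.01 with the constant 10 times larger or smaller. Mbd1 was at 0.17 (SE 0.05, adjusted p = 0.415), turning to -0.26 with the highest transcript only and to -0.0175 with abundance multiplied by length, and Dnmt1 and Dnmt3a also had unadjusted p-values under 0.05, making 4 of 9 members against 8.28% of all genes.

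The intervals on the log2(value + 0.88) scale were narrow for a pair of members. Over the 5 contrasts between 2 groups, every 95% interval of Dnmt1 lay between 0.897-fold and 1.18-fold, and every interval of Tet3 between 0.830-fold and 1.13-fold. The added constant makes these slightly narrower than intervals of abundance itself. For low genes such as Tet1 and Dnmt3b it sets the size of the difference. For Mbd1 and Mbd2 the direction turned in some contrasts when abundance was multiplied by length. No bound is therefore given for these genes.

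**Figure D4:**
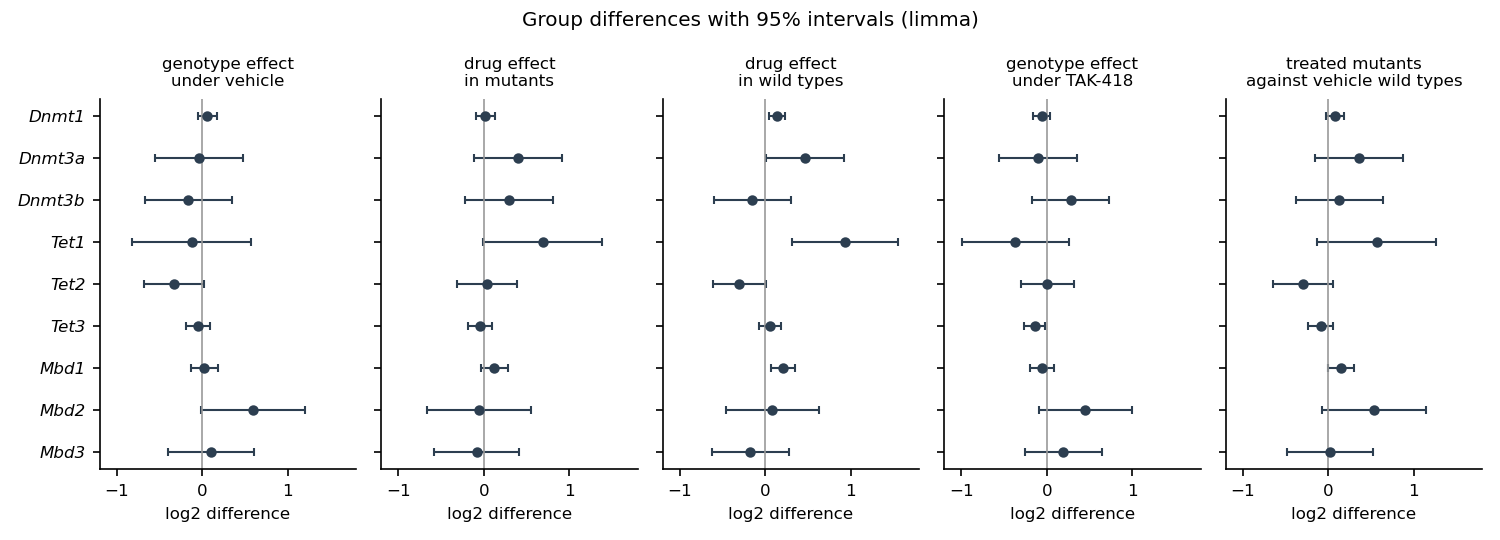
Log2 difference of each gene in the 5 contrasts between 2 groups, as the limma estimate (point) with its 95% interval (bar); the grey line is no difference. Dnmt1, Tet3 and Mbd1 have narrow bars near 0, and the bars of Tet1, Mbd2 and Dnmt3a are wide.

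The authors' deposited tables test 9 of the 11 loci that hold a member in each of 4 comparisons, on pooled groups; a second locus each of Tet1 and Dnmt3a was not tested there. In the authors' deposited table of mutant vehicle over wild-type vehicle, 0 of 9 were called at q under 0.05, against 0.224% of all tested loci. The authors' deposited table of mutant TAK-418 over wild-type TAK-418 called 0 of 9, against 0.218%. That of mutant TAK-418 over wild-type vehicle called 0 of 9, against 0.324% in the authors' deposited table. Mutant vehicle over wild-type TAK-418 called 0 of 9, against 0.611% in the authors' deposited table. The smallest unadjusted p of any of these loci in the authors' deposited tables was 0.126, for Dnmt3a in the last comparison (log2 fold change -0.14, q = 0.695). Over the 4 authors' deposited tables the 9 tested member loci ran from -0.14 to 0.23 on the log2 scale. The untested second Tet1 locus, at low values, ran from -1.95 to 1.42 in the authors' deposited tables.

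Other genes of the pathway were taken from 5 lists with 56 genes (Mbd4 stands in 2), of which 55 were tested. Over the 8 contrasts, 0 genes of any list were called by limma, against 0.00831% of all tests. At an unadjusted p under 0.05, the steps after TET oxidation gave 8 higher and 5 lower of 144 tests, NuRD 3 higher and 1 lower of 96, methyl donor supply 2 higher of 64, cofactors 2 lower of 80 and the other readers 1 lower of 64, beside 5.90% of all tests over all genes. Of 10 maintenance and de novo cofactors, Hells, a chromatin remodeller needed for methylation of repeats, had the smallest p, with a log2 difference of -0.54 (SE 0.17, adjusted p = 0.430) for the drug effect averaged over genotypes. Of 18 genes for the steps after TET oxidation, the glycosylase Tdg, which removes the oxidised base, was at 0.43 (SE 0.11, adjusted p = 0.608) for the genotype effect under vehicle and at 0.36 (SE 0.10, adjusted p = 0.341) for the drug effect in wild types. Among 8 other methyl-CpG readers and MBD proteins, Zfp57, which guards imprinted methylation, was at -0.68 (SE 0.29, adjusted p = 0.977) for the interaction. Of 13 NuRD subunits, 12 were tested, and Mta1 was at 0.22 (SE 0.06, adjusted p = 0.341) for the drug effect in wild types. Of 8 genes of methyl donor supply, Mtrr, which keeps methionine synthase active, was at 0.11 (SE 0.05, adjusted p = 0.575) for the drug effect averaged over genotypes. List medians lay between -0.06 and 0.07 in every contrast.

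Correlations between members were computed for 7 genes, leaving out Tet1 (listed at 0 in 2 libraries) and Mbd2 (values in separate sets). Of 21 pairs, 0 had an adjusted p under 0.05 in a permutation test over the 14 libraries. The highest was Dnmt1 with Mbd1, at Pearson r = 0.64 (permutation p = 0.0149, adjusted p = 0.314) and Spearman rho = 0.54 (permutation p = 0.0476, adjusted p = 0.238). It was 0.46 without the 2 libraries farthest from the median of Dnmt1 and 0.18 after group means were subtracted. Without wild-type TAK-418 replicate 1, the library with the Mbd3 read-through, Dnmt3b with Mbd3 was the strongest pair, at r = -0.75 (permutation p = 0.00253, adjusted p = 0.0531) and rho = -0.81 (permutation p = 0.00145, adjusted p = 0.0304), where all 14 libraries gave r = 0.03 (permutation p = 0.922, adjusted p = 0.922) and rho = -0.53 (permutation p = 0.0522, adjusted p = 0.238). The Dnmt3b values are sums over fragments that covered a median of 26.7% of its annotated exon bases. Mbd3 ran only from 57.2 to 67.3 without that library.

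As a description over the 14 libraries, the gene most like each of 7 members among 13273 genes, by Pearson r of log2 values, was Clasrp for Dnmt1 (0.89), Hnrnpd for Dnmt3a (0.87), Zfp974 for Dnmt3b (0.83), Bhlhe40 for Tet2 (0.87), Adipor2 for Tet3 (0.87) and Erc1 for Mbd1 (0.92). Sipa1 was most like Mbd3, at 0.99, but at 0.74 without wild-type TAK-418 replicate 1. Each r was picked as the highest over all these genes. Mbd2 is left out because its values lie in separate sets, and Tet1 because it was listed at 0 in 2 libraries.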

How the data were processed

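RNA-seq of mouse hippocampus was deposited for 14 libraries. The submitters' processing notes name FastQC, TopHat2 2.1.0 and the mm10 build; per the file headers, the authors assembled transcripts of each library with CLASS 2.1.7. Each transcript carries a deposited abundance score, on a scale like FPKM that was worked out from the values. The authors also deposited 4 tables in Cuffdiff's layout with an FPKM value per pooled group, a log2 fold change, a p-value and a q-value; counts were not used here.

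Here each transcript was given to 1 of the 55536 GENCODE M21 genes (GRCm38), by introns in common or, with a single exon, by 50% exon overlap, and abundances were added up per gene. Scaling was by the median of ratios over 13273 genes. Genes listed in 3 libraries or more entered limma 3.58.1 (R 4.3.3) on log2(value + 0.88), the 10th percentile of values above 0, in 1 fit with 4 group means; such log2 differences understate changes of low genes. Isoform shares had exact permutation tests (two-sided) and correlations with 100000 permutations (Python 3.11.15, scipy 1.17.1). Alternatives covered the pseudocount, filter, scaling, transcript choice, groups fitted, sex and each library left out. Sex was inferred from Xist and Y-linked genes, and every group held both sexes. There were 2 females and 1 male in wild-type vehicle, 2 and 3 in wild-type TAK-418, and 1 and 2 in each mutant group. Simulated data served to check limma.

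All 9 members are described. Log2 difference and SE are printed for the 2 with the smallest unadjusted p per contrast, for list genes those with the smallest p of a list, and the most alike gene by Pearson r. Members and lists were chosen with earlier results of these data known, and the splice choices after the transcripts were seen. Depth has no stated unit, so totals are relative, and where libraries were not separate mice, p-values measure only the spread between samples.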

Additional observations from a re-analysis of the deposited data

Results flagged for a closer look

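Of 14 sets of values with 4 to 10 libraries checked for a single library far from its fellows, 3 had one; chance alone marks about 1 in 20. All 14 sets are from the wild-type TAK-418 group, the one group with more than 3 libraries. Mbd3 scaled abundance was 29.1 in replicate 1 against 58.2 to 66.0 in the other 4 libraries. The share of the longer Mbd3 first exon was 68.8% in the same library against 26.7% to 37.4%. That library is the deepest and the only one with Mbd3 transcripts beginning in Uqcr11. The share of Tet3 from the upstream start was 73.2% in replicate 2 against 0% to 15.5%.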

How the results depend on the processing

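The count of members called by limma was 0 in each of the 8 contrasts and stayed at 0 under every one of the 26 alternatives run (the contrasts averaged or of interaction have no fit with only the groups compared), leaving out each library in turn included; the smallest adjusted p was 0.209, for Mbd1 in the drug effect averaged over genotypes without WT_TAK418 replicate 3. The counts from the authors' deposited tables (q under 0.01, unadjusted p under 0.05) and of start choices were also 0 throughout. With WT_TAK418 replicate 1 left out, an alternative chosen after seeing the data, 0 splice choices were called. The exact permutation test gives at least 0.1 for 3 against 3 libraries and 0.0357 for 3 against 5, and no less with a library left out. With every test at that floor, no adjusted p would be under 0.05, so the start and splice counts could only be 0. Of 407 alternative values of the named members, 394 kept their direction. With abundance multiplied by length, Mbd2 turned to -0.59 for the genotype effect under vehicle, -0.53 under TAK-418, -0.65 for treated mutants against vehicle wild types and -0.56 averaged over treatments; Mbd1 turned to -0.0552 for the drug effect in wild types, -0.40 for treated mutants against vehicle wild types and -0.0175 for the drug effect averaged over genotypes, and Tet2 to -0.0454 for the interaction. With the highest transcript only, Mbd1 turned to -0.45 (drug effect in mutants), -0.064 (in wild types), -0.15 (treated mutants against vehicle wild types) and -0.26 (drug effect averaged over genotypes), and Dnmt1 to 0.0408 (interaction). The cause was not tested. On values as deposited, without scaling, 3 of 21 member correlations were under 0.05 after adjustment, where 0 were with scaling. No paired analysis was possible because the labels give no replicate numbers. Without WT_TAK418 replicate 1, 0 of 21 Pearson correlations were under 0.05 after adjustment (smallest adjusted p = 0.0531, permutation test), and r ran from -0.75 to 0.59. The rank correlation of Dnmt3b, a sum over fragments, with Mbd3 passed, at an adjusted p of 0.0304 (permutation test).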
